A study of Mus musculus with 3 samples.

Results

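The chemokine genes *Cxcl9*, *Cxcl10* and *Cxcl16* were followed in raw transcript counts of tumour cDC1s, type 1 conventional dendritic cells that cross-present antigen to CD8+ T cells. They are 3 of the 32285 genes counted and were chosen by name, as both measured ligands of the receptor CXCR3 together with the ligand of CXCR6. CXCL9 and CXCL10 are secreted chemokines, both typically induced by interferons, that attract CXCR3-bearing effector T cells and NK cells. CXCL16 is made as a transmembrane protein on antigen-presenting cells, from which the protease ADAM10 can release it as a soluble chemokine, and its receptor CXCR6 is carried by effector and resident T cells. In tumours, cDC1s and macrophages are known sources of all these ligands.

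The experiment comprised 3 droplet-based single-cell libraries, 1 from each genotype, of pre-cDCs, cDC1s and cDC2s sorted on day 5 from tumours of MCA205 LA-OVA, a transplanted fibrosarcoma line expressing the model antigen OVA. The genotypes were WT (C57BL/6J), sGSN-/-, which lack the secreted form of gelsolin, and sGSN-/-Clec9a-/-, which in addition lack *Clec9a*, the gene of the dead-cell receptor DNGR-1; both mutants are germline deletions on the C57BL/6J background, and adult males and females of each genotype were pooled. Each captured transcript was counted once by a unique molecular identifier (UMI), and a level in CPM is a gene's UMIs scaled to a common total, that of all UMIs in the same library and group of cells. A deposited table placed 5806 barcodes in 12 cDC1 clusters, here named by number and leading genes: clusters 0, 2, 3, 5 and 6 are resting, clusters 4 and 1 early, cluster 7 carries interferon-stimulated genes, cluster 8 *Ccr7* and *Il12b*, cluster 9 NF-kB response genes and cluster 10 *Serpina3g* and *Cxcl9*. Cluster 11 (60 shallow cells) was left out of the tests.

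The libraries held 8173 to 12763 barcodes and 109270958 to 176578136 UMIs, and 1712 to 2316 of the barcodes per library were cDC1s with a median of 12231 to 14150 UMIs. *Clec9a* gave 5502 UMIs in WT cDC1s, 3970 in sGSN-/- cDC1s and 2 in sGSN-/-Clec9a-/- cDC1s, whereas the counts of *Gsn* do not separate its secreted form, so that the sGSN-/- label was not checked. Between any pair of libraries 53 to 55 barcode sequences were shared. With 1 pool of mice per genotype, each cluster had 3 replicate sums, 1 from each library (n = 3), so an SD also contains any difference between genotypes, and a p-value measures only the spread between these pools. As the authors made the clusters from these counts, an adjusted p is a measure of agreement between libraries and no test that a cluster is real. Intervals cover counting error only.

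*Cxcl9* (ENSMUSG00000029417, chromosome 5, 92321347 to 92328079, minus strand, 4 exons, GENCODE M21 on GRCm38) and *Cxcl10* (ENSMUSG00000034855, chromosome 5, 92346638 to 92348889, minus strand, 4 exons) are neighbours 18559 bases apart. Their promoters are shown because the levels of both genes moved together across the clusters; RefSeq (GRCm38.p6) held entries for 2 of the 3 genes. Each sequence gives the 250 bases before the gene start on the gene's strand, *Cxcl9* at chr5:92328080-92328329 and *Cxcl10* at chr5:92348890-92349139, with capitals for matches to an interferon-stimulated response element (GAAA, any 2 bases, GAAA) or an NF-kB site (GGGA, any 4 bases, CC) on either strand.
Cxcl9: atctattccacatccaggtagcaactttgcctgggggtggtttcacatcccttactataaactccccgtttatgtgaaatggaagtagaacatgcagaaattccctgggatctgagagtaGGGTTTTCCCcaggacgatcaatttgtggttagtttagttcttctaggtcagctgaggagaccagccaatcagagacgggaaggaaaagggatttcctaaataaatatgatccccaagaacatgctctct
Cxcl10: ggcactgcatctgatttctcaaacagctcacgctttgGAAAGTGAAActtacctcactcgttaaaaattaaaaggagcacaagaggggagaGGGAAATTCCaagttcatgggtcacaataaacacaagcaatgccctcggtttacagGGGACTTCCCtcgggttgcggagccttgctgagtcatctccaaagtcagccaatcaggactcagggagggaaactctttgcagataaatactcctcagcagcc
The *Cxcl10* promoter held 1 match to the interferon-stimulated response element, GAAAGTGAAA, 213 to 204 bases before the start, and 2 matches to the NF-kB pattern, GGGAAATTCC at 159 to 150 and GGGACTTCCC at 103 to 94. The *Cxcl9* promoter held 1 match to the NF-kB pattern on the opposite strand, printed on the gene's strand as GGGTTTTCCC at 130 to 121. The response element pattern occurred in 2.98% and the NF-kB pattern in 17.6% of 32851 promoters of the same window, and the pattern of the interferon-gamma-activated site (TTC, any 3 bases, GAA), found in 7.02%, matched neither window. None of the matches overlapped, and a match is a description of letters, not a site of binding. *Cxcl16* (ENSMUSG00000018920) lies on chromosome 11, 70453983 to 70459984, minus strand, with 5 exons.

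*Cxcl9* was most abundant in cluster 10. It was counted at 4745 CPM in the WT library (1339 UMIs in 21 cells), 4982 in sGSN-/- (1546 UMIs in 27 cells) and 4770 in sGSN-/-Clec9a-/- (1425 UMIs in 28 cells). The 3 libraries lay close together, at 4832 ± 130 CPM (SD, n = 3), and 92.1% of the 76 cells carried at least 1 *Cxcl9* UMI. Clusters 7, 8 and 9 followed with 542 ± 40.4, 516 ± 124 and 332 ± 179 CPM (SD, n = 3). These 3 clusters overlapped in their ranges over libraries, and cluster 9 was highest in sGSN-/-, with 539 CPM against 227 in WT and 231 in sGSN-/-Clec9a-/-. Cluster 4 stood apart below them at 111 ± 33.8 CPM (n = 3). The remaining clusters lay between 10.7 CPM in cluster 2 and 35.1 CPM in cluster 5, and neighbours in this order overlapped.

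*Cxcl10* had the same leading cluster but a wider spread between libraries. In cluster 10 it was counted at 1513 CPM in WT, 1508 in sGSN-/- and 2450 in sGSN-/-Clec9a-/-, a mean of 1824 ± 542 CPM (SD, n = 3). The sGSN-/-Clec9a-/- library was thus the high one, although 81.0% of WT, 55.6% of sGSN-/- and 78.6% of sGSN-/-Clec9a-/- cells carried a UMI. Cluster 7 reached 244 ± 140 CPM (132 in WT, 199 in sGSN-/-, 401 in sGSN-/-Clec9a-/-) and cluster 9 reached 215 ± 58.4 CPM. In cluster 8 *Cxcl10* was at 101 ± 39.7 CPM (127, 55.1 and 120 in the same order), in a range below that of cluster 9. Cluster 4 held 65.8 ± 28.8 CPM, and the other clusters 2.89 to 20.1 CPM.

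*Cxcl16* followed another order. Its highest level was in cluster 8, the *Ccr7* and *Il12b* cells, with 663 CPM in WT, 789 in sGSN-/- and 582 in sGSN-/-Clec9a-/- (678 ± 104, SD, n = 3), and 87.1% of the 255 cells carried a UMI. Cluster 10 was next at 205 ± 39.4 CPM, then cluster 1, of early cDC1s, at 187 ± 16.2 CPM and cluster 9 at 157 ± 35.4 CPM. From cluster 10 downwards all neighbours in the order overlapped. *Cxcl16* was also present at 78.0 to 120 CPM in the other clusters, resting cells included, where *Cxcl9* and *Cxcl10* were low. Cluster 7, high in both CXCR3 ligands, held *Cxcl16* at 94.5 ± 17.9 CPM, beside 96.7 ± 7.53 CPM in the resting clusters.

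**Figure D1:**
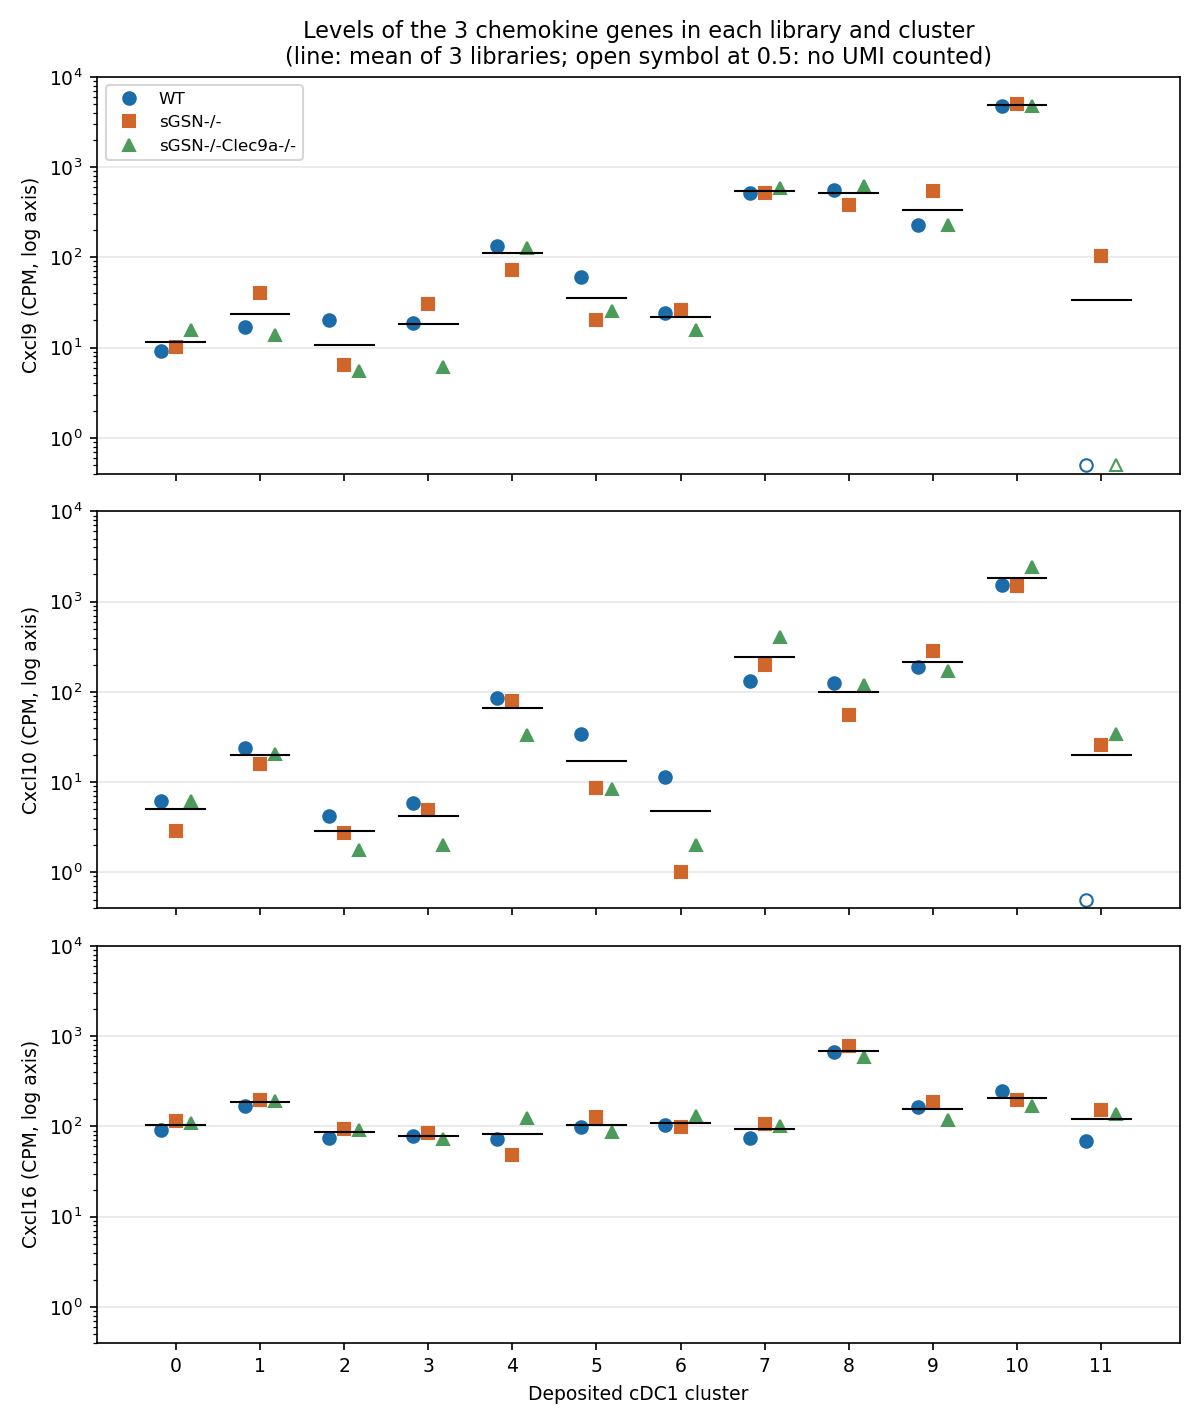
Level of *Cxcl9*, *Cxcl10* and *Cxcl16* (CPM, log axis) in each deposited cDC1 cluster; symbols are the 3 libraries, 1 per genotype, lines their mean, and an open symbol a library with no UMI. *Cxcl9* and *Cxcl10* peak in cluster 10 (means 4832 and 1824 CPM) and *Cxcl16* in cluster 8 (678 CPM).

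The UMIs of each gene were spread over more clusters than the one with its highest level. Cluster 10 held 37.4% of the *Cxcl9* UMIs of cDC1s, cluster 7 28.7%, cluster 8 11.9% and cluster 9 6.0%. For *Cxcl10* the shares of clusters 10 and 7 were 34.1% and 29.9%. Cluster 8 held 19.4% of the *Cxcl16* UMIs.

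Single cells differed still more. The 59 cDC1s with the most UMIs of a gene, 1% of all, held 58.9% of *Cxcl9* and 70.0% of *Cxcl10* UMIs but 10.8% of *Cxcl16* UMIs, and the top 5% (291 cells) held 94.2%, 95.8% and 32.5%. In cluster 10 the median cell carried 33.5 *Cxcl9* UMIs and the richest 264. At least 10 *Cxcl9* UMIs were found in 212 cDC1s, of which 63 were in cluster 10, 56 in cluster 7, 27 in cluster 8, 25 in cluster 9 and 14 in cluster 4. Clusters with few such cells owed their level to single cells: in cluster 4, 6 cells held 66.1% of *Cxcl9* and 72.8% of *Cxcl10* UMIs, and in cluster 1, 9 cells held 79.8% and 81.3%. Of the 170 cDC1s with at least 10 *Cxcl16* UMIs, 54.7% were in cluster 8 and 22.4% in cluster 1.

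**Figure D2:**
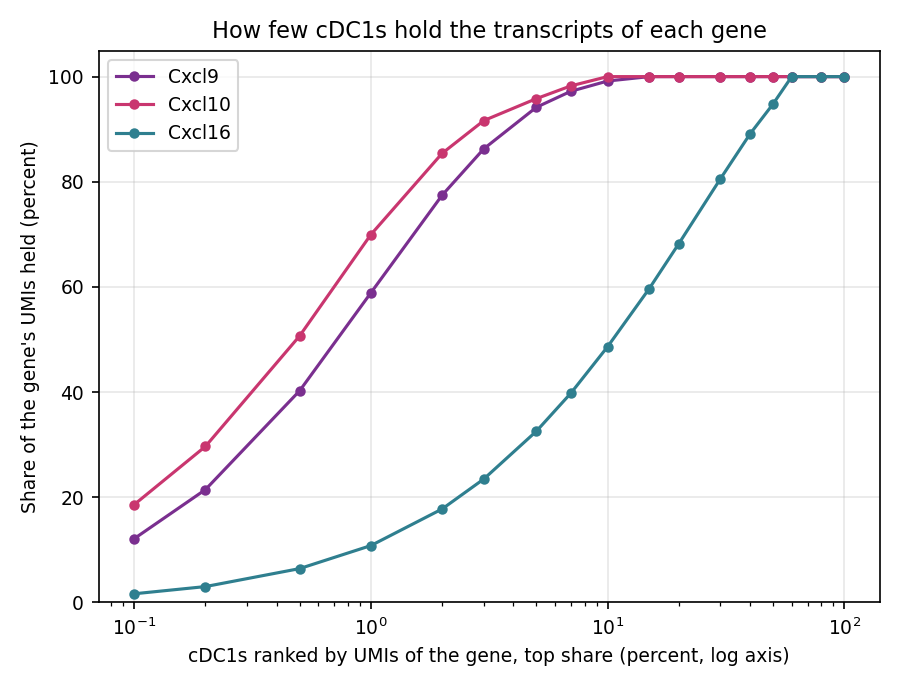
Cumulative share of each gene's UMIs (percent) held by the cDC1s richest in it (percent of 5806 cells, log axis), 1 line per gene. The richest 1% of cells hold 58.9% of *Cxcl9*, 70.0% of *Cxcl10* and 10.8% of *Cxcl16* UMIs.

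Cluster 10 was compared with cluster 8 to set the cells richest in CXCR3 ligands against those richest in *Ccr7*. Both CXCR3 ligands were higher in cluster 10 and *Cxcl16* was lower. On UMIs summed per library and cluster, the quasi-likelihood test of edgeR, adjusted by Benjamini-Hochberg over all genes, gave log2 fold changes of 3.0 for *Cxcl9* (SE 0.29, adjusted p = 8.5e-11), 4.02 for *Cxcl10* (SE 0.35, adjusted p = 4.6e-12) and -1.99 for *Cxcl16* (SE 0.22, adjusted p = 2.3e-09). All 3 members passed the threshold of 0.05, beside 27.2% of the 9606 genes tested (11.2% higher and 16% lower; with library sizes alone in place of the TMM factors of edgeR, 17.7% and 11%). When the cDC1s were clustered again without these 3 genes, the new cluster holding most of cluster 10 also held most of cluster 7; with it the edgeR difference of *Cxcl9* from cluster 8 was 0.63 (adjusted p = 0.12), while *Cxcl10* fell to 1.74 and still passed (adjusted p = 0.00084) and *Cxcl16* was at -2.88 (adjusted p = 8.9e-22). With finer clusters, chosen after seeing the data, *Cxcl9* differed by 2.39 (adjusted p = 1.1e-09).

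Genes of the interferon gamma path went in both directions between these clusters. Of 15 tested, 6 were higher and 4 lower in cluster 10, with a median log2 fold change of 0.17 beside -0.08 over all genes tested, and with library sizes alone 7 and 2, with a median of 0.42 beside 0.16. *Iigp1*, an immunity-related GTPase, was at 113 ± 39.8 against 1.94 ± 1.94 CPM (log2 fold change 6.03, SE 0.59), and *Serpina3g*, a serine protease inhibitor, at 458 ± 226 against 34.2 ± 13.2 CPM (3.57, SE 0.36). *Socs1*, a feedback inhibitor of cytokine signalling, and *Ciita*, the activator of MHC class II genes, rose by 1.84 and 1.77. The type I interferon path had 1 higher and 4 lower of 14 genes (median -0.61; 2 higher and 1 lower with library sizes alone), the highest being *Stat2*, part of the ISGF3 factor, at 1.16, and the effector *Isg15* lay at -1.16. In the NF-kB path 9 of 10 genes were lower and none higher (median -1.16), among them the subunit *Relb* at 87.8 ± 30.2 against 469 ± 121 CPM and the adaptor *Traf1* at 311 ± 4.34 against 919 ± 60.5 CPM. In the list of genes that mark the *Ccr7* state 9 of 10 were lower, with *Ccr7*, the receptor that guides dendritic cells to lymph nodes, at 26.9 ± 37.7 against 2001 ± 723 CPM. This last list follows the cells that define cluster 8.

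Receptors and processing enzymes of these ligands did not pass the edgeR test between clusters 10 and 8, with 0 of the 3 tested at an unadjusted p under 0.05 and 0 called by DESeq2, although 1 was called higher with library sizes alone. *Cxcr3*, which cDC1s themselves express, was at 3.44 ± 3.55 CPM in cluster 10 and 6.70 ± 2.78 CPM in cluster 8. *Dpp4*, a peptidase that trims CXCR3 ligands, and *Adam10* were at 146 ± 36.8 and 29.5 ± 15 CPM in cluster 10. The log2 fold changes were -1.37 (SE 0.90) for *Cxcr3*, 0.18 (SE 0.16) for *Dpp4* and 0.24 (SE 0.35) for *Adam10*. *Cxcl2*, a neutrophil chemokine and the only one of the other CXC chemokines that passed the filter on low counts, was lower in cluster 10, at 41.8 ± 32.5 against 179 ± 116 CPM (-2.19, SE 0.57).

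The comparison of cluster 10 with cluster 7 asked how the cells richest in CXCR3 ligands differed from interferon-stimulated cells. All 3 members were higher in cluster 10, beside 10.2% of genes called, 3.92% higher and 6.25% lower (5.56% and 4.2% with library sizes alone). The edgeR log2 fold changes were 3.04 for *Cxcl9* (SE 0.28, adjusted p = 2.8e-10), 2.80 for *Cxcl10* (SE 0.29, adjusted p = 3.7e-09) and 1.0 for *Cxcl16* (SE 0.25, adjusted p = 0.0057). Without the WT library *Cxcl16* differed by 0.71 and did not pass (edgeR adjusted p = 0.22).

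The pathway lists also differed between clusters 10 and 7. Of the interferon gamma path 8 of 15 genes were higher and 1 lower in cluster 10 (median 0.82, beside -0.07 over all genes), with *Irf1*, a transcription factor of this response, at 667 ± 75.6 against 84.4 ± 2.05 CPM (2.86, SE 0.16) and the checkpoint ligand *Cd274* at 262 ± 40 against 27.9 ± 5.39 CPM (3.11, SE 0.21). Of the type I interferon path 9 of 14 were lower and none higher (median -1.83). *Ifit3* was at 10.5 ± 15.5 against 154 ± 18.4 CPM (-4.04, SE 0.55). *Rsad2*, which encodes the antiviral enzyme viperin, was at 42.6 ± 36.8 against 283 ± 35.1 CPM (-2.88, SE 0.42). All 10 NF-kB genes were higher (median 1.16), led by *Birc3* (1.67, SE 0.22) and *Relb* (1.54, SE 0.26). Of the *Ccr7* state 4 of 10 were higher (median 1.87), with *Ccl17*, a ligand of CCR4, at 568 ± 599 against 5.30 ± 4.85 CPM. *Cxcr3* was the only one of the 3 ligand partners tested that passed, at 3.44 ± 3.55 against 57.4 ± 5.95 CPM (-4.19, SE 0.56). *Adam10* was at 29.5 ± 15 against 15.3 ± 2.26 CPM (0.83, SE 0.34, edgeR adjusted p = 0.13).

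Markers of other cells were counted in the same sums. The summed level of 7 cDC1 markers was 1988 to 2048 CPM in cluster 10, 2262 to 2583 in cluster 7, 1177 to 1343 in cluster 8 and 2494 to 2902 in cluster 9. Of 6 cDC2 markers the sum was 107 to 509 CPM in cluster 10, 34.2 to 42.1 in cluster 7 and 27.6 to 97.9 in cluster 8, the highest value being that of sGSN-/- in cluster 10, where *Cd209a* alone gave 448 CPM beside 110 in WT and 73.6 in sGSN-/-Clec9a-/-. Of 6 pre-cDC markers the sum was 90.4 to 267 CPM in cluster 10, 68.2 to 91.2 in cluster 7, at most 39.4 in cluster 8 and 7.21 to 11.8 in cluster 9. *Sirpa* and *Itgam* lay at or below 10.04 CPM in each library of cluster 10. The sum of 11 monocyte or macrophage markers was 203 to 230 CPM in cluster 10, 235 to 321 in cluster 7, 113 to 716 in cluster 8, 294 to 360 in cluster 9 and 350 to 378 in the resting clusters. Of 6 plasmacytoid markers it was 878 to 916 CPM in cluster 7, 329 to 472 in cluster 10, 332 to 534 in cluster 8, 226 to 288 in cluster 9 and 290 to 315 in the resting clusters. The 6 activated cDC markers summed to 48.3 to 521 CPM in cluster 10, at most 34.1 in cluster 7, 3641 to 6668 in cluster 8 and 31.1 to 59.5 in cluster 9. Proliferation, NK cell, T cell, neutrophil, B cell and fibroblast or tumour cell markers summed to at most 137 CPM in these 4 clusters. The part of these transcripts in the differences was not tested.

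The comparison of cluster 8 with cluster 9 set *Ccr7* cells against NF-kB response cells. *Cxcl16* was higher in cluster 8 in each library, at 663, 789 and 582 CPM against 166, 188 and 118 CPM in cluster 9, with an edgeR log2 fold change of 2.33 (SE 0.20, adjusted p = 1.5e-12). *Cxcl9* was higher by 0.87 (SE 0.30, edgeR adjusted p = 0.023), but in sGSN-/- alone it was lower in cluster 8, at 376 against 539 CPM, and the edgeR difference did not pass without WT (0.58, adjusted p = 0.24) or without sGSN-/-Clec9a-/- (0.56, adjusted p = 0.19). *Cxcl10* pointed the other way at -0.93 without passing the test (SE 0.38, edgeR adjusted p = 0.055), and with the library as a block it passed at -0.91 (edgeR adjusted p = 0.038), as it did without WT (-1.29, adjusted p = 0.016) or without sGSN-/-Clec9a-/- (-1.17, adjusted p = 0.0038). Thus 2 of 3 members were called, beside 35.1% of all genes (19.6% higher and 15.5% lower, or 14.7% and 23.1% with library sizes alone). In the same comparison 11 of 15 interferon gamma path genes were higher in cluster 8 and 2 lower (median 1.54 beside -0.0023 over all genes), with *Gbp5*, an interferon-induced GTPase, at 45.6 ± 12.6 against 0.813 ± 0.751 CPM. Of the type I path 10 of 14 were higher (median 1.67) and of the NF-kB path 6 of 10 were higher and 2 lower (4 and 3 with library sizes alone), *Nfkbiz*, an atypical inhibitor-of-kB protein, being at 68.1 ± 27.6 against 436 ± 58.7 CPM. *Cxcr3* was lower in cluster 8, at 6.70 ± 2.78 against 72.2 ± 7.02 CPM (-3.06, SE 0.33).

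Clusters 7 and 9 were also compared with the mean of the resting clusters. In cluster 7 *Cxcl9* was at 542 ± 40.4 against 19.5 ± 6.42 CPM (edgeR log2 fold change 5.03, SE 0.21, adjusted p = 1.3e-22) and *Cxcl10* at 244 ± 140 against 6.81 ± 4.83 CPM (5.45, SE 0.27, adjusted p = 5.3e-20), while *Cxcl16* differed by 0.10 (SE 0.16, adjusted p = 0.69). In this comparison 24.4% of genes were called, 16% higher and 8.47% lower (11.1% and 16.9% with library sizes alone). In cluster 9 the edgeR differences were 4.20 for *Cxcl9* (SE 0.26, adjusted p = 6.2e-16), 5.17 for *Cxcl10* (SE 0.34, adjusted p = 3.5e-15) and 0.76 for *Cxcl16* (SE 0.17, adjusted p = 0.003), beside 6% of genes called, 4.83% higher and 1.17% lower (4.1% and 1.76% with library sizes alone). Without WT the difference of *Cxcl16* was 0.60 and did not pass (edgeR adjusted p = 0.20). These comparisons share the resting clusters, so their values are given side by side only.

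**Figure D3:**
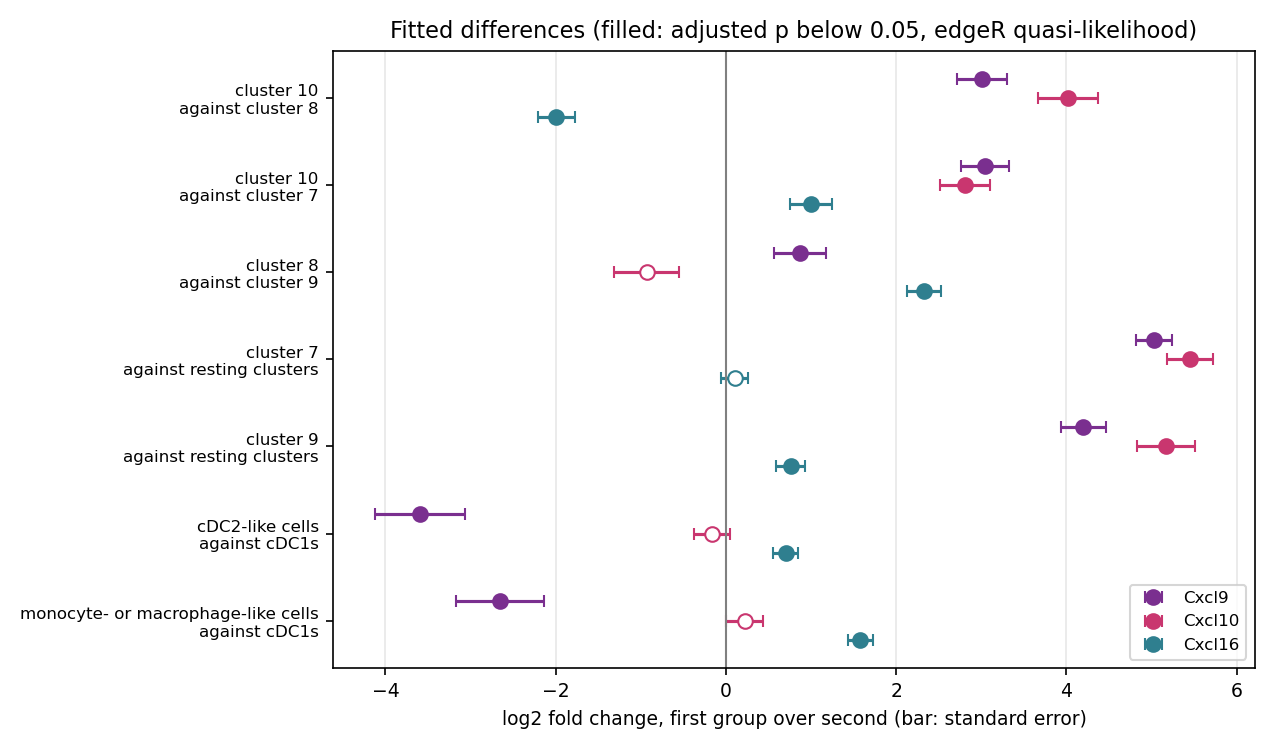
Log2 fold change (edgeR, bars are SE) of *Cxcl9*, *Cxcl10* and *Cxcl16* in the 7 comparisons, with positive values for the group named first; *Cxcl9* and *Cxcl10* in the 2 myeloid classes are fitted without the *Ifit3* and *Rsad2* cluster and change with it. *Cxcl16* goes against the CXCR3 ligands in cluster 10 against cluster 8 (-1.99 beside 3.0 and 4.02).

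The pathway lists are given side by side for clusters 7 and 9, which were not compared with each other. In cluster 7 all 14 type I interferon genes (median 3.94) and 11 of 15 interferon gamma path genes (median 1.31) were higher than in resting cells, and of 10 NF-kB genes 2 were. *Ifit3* was at 154 ± 18.4 against 0.505 ± 0.393 CPM and *Gbp5* at 27.9 ± 5.73 against 0.753 ± 0.355 CPM. In cluster 9, 0 of the 14 type I interferon genes passed the edgeR test (median 0.32), with 5 at an unadjusted p under 0.05 and 3 called by DESeq2. There 4 of 15 interferon gamma path genes were higher (median 0.38) and all 10 NF-kB genes were higher (median 1.77). *Nfkbiz* was at 436 ± 58.7 against 22.5 ± 1.43 CPM and *Nfkbia*, the inhibitor of NF-kB, at 1919 ± 245 against 186 ± 17.9 CPM. *Irf1* rose in cluster 9 as well, at 159 ± 16.4 against 41.1 ± 3.0 CPM (2.09, SE 0.14), whereas *Gbp5* lay at 0.813 ± 0.751 CPM. *Cxcl2* rose with the NF-kB genes, at 90.3 ± 28.9 against 23.5 ± 1.81 CPM (2.05, SE 0.36).

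Across the 33 sums of clusters 0 to 10 by library, the genes whose level on the log2(CPM + 1) scale was most like that of *Cxcl9*, among 6523 genes with a mean of at least 10 CPM, were *Cxcl10* (Pearson r = 0.949), *Cd40* (0.939), *Casp4* (0.927), *Irf1* (0.906) and *Gbp5* (0.865). *Cxcl10* was most like *Cxcl9*, *Cd40* (0.877), *Casp4* (0.862), *Sdc4* (0.835) and *Slfn2* (0.831). *Cxcl16* had other neighbours, *Mif4gd* (0.898), *Sema7a* (0.893), *Zmynd15* (0.889), *Syngr2* (0.882) and *Bhlhe40* (0.869), and correlated with *Cxcl9* at 0.475 and with *Cxcl10* at 0.388. The 33 sums share 3 libraries and differ in depth, so these values are descriptions.

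*Zmynd15* overlaps *Cxcl16* on the opposite strand (chromosome 11, 70459433 to 70466202), and *Art3* overlaps *Cxcl10* on the opposite strand. The sources used here do not state whether the counting used strand, without which reads of such pairs cannot be told apart. *Zmynd15* was at 161 ± 46.1 CPM in cluster 8, 4.18 in cluster 9 and 6.87 in cluster 10, and *Art3* gave 23 UMIs in clusters 0 to 10. *Cxcl11*, the third CXCR3 ligand, here annotated as a polymorphic pseudogene, had 0 UMIs in these clusters. Other genes near the chemokines did not follow them uniformly. Beside *Cxcl9*, *Sdad1* differed by -0.11 (SE 0.17) and *Naaa* by -0.54 between clusters 10 and 7. Both were higher in cluster 10 than in cluster 8, *Sdad1* by 1.82 (edgeR adjusted p = 1.1e-08) and *Naaa* by 1.52 (edgeR adjusted p = 5.4e-11). Beside *Cxcl16*, *Med11* was higher by 1.60 and *Arrb2* by 2.11 in cluster 8 than in cluster 9, but *Pelp1* differed by -0.16.

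Detection was then read cell by cell. *Cxcl9* UMIs were found in 11.7%, *Cxcl10* UMIs in 8.46% and *Cxcl16* UMIs in 59.2% of the 5806 cDC1s. In NK-like cells, a type not expected to make *Cxcl9*, 1.18% of cells had a *Cxcl9* UMI and 7.03% a *Cxcl16* UMI at a median of 6906 UMIs per cell. For *Cxcl10* this share was 15.7%, above that of cDC1s as a whole. Whether these *Cxcl10* UMIs were made by the NK-like cells or came from free RNA was not tested. Low shares of cells with *Cxcl10* are therefore given as detection only. Depth was then set equal by thinning cells to 3900 UMIs and leaving out shallower ones, which kept 5518 of the 5806 cDC1s, but 198 of 255 in cluster 8. As means over libraries the *Cxcl9* share was then 38.8% in cluster 9 and 22.2% in cluster 7, against unthinned means of 51.9% and 32.7%. The *Cxcl16* share was 89.3% in cluster 8 and 36.6% in cluster 10, against 86.2% and 55.8% unthinned. In cluster 8 the cells without *Cxcl16* had a median of 2039 UMIs, under the limit for thinning.

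*Cxcl9* and *Cxcl10* were found in the same cells more often than their separate shares would give. Both were detected in 233 cDC1s (93 in WT, 68 in sGSN-/- and 72 in sGSN-/-Clec9a-/-), against 57.3 if the shares were independent. A *Cxcl10* UMI was present in 34.4% of cells with *Cxcl9* and in 5.03% of cells without. In cluster 10, where nearly every cell had *Cxcl9*, 53 cells had both against 49.7. Within cluster 7 the count was 52 against 24.2, within cluster 8 29 against 16.6 and within cluster 9 51 against 36.9. Cells with *Cxcl9* were deeper than those without in cluster 8 (median 15091 against 8292 UMIs). With cells thinned the counts were 27 against 9.30 in cluster 7, 11 against 6.55 in cluster 8 and 31 against 18.6 in cluster 9. Cells with at least 1 UMI of each gene made up 4.01% of cDC1s, 4.06 times the product of the shares, and 2.43% after thinning to 3900 UMIs, 6.81 times it. Cells with at least 2 UMIs of each, unthinned, made up 2.67%, 8.10 times the product.

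*Cxcl16* met the CXCR3 ligands in somewhat more cells than the product of the shares, while cells with *Cxcl16* were also deeper than those without, at a median of 14366 against 12213 UMIs over all cDC1s and 11889.5 in cluster 8. *Cxcl9* and *Cxcl16* met in 463 cells against 401, and within clusters in 83 against 71.0 (cluster 7), 74 against 67.0 (cluster 8), 70 against 61.5 (cluster 9) and 39 against 38.7 (cluster 10). *Cxcl10* and *Cxcl16* met in 340 cells against 291, with 42 against 38.1 in cluster 7, 51 against 47.9 in cluster 8, 60 against 53.3 in cluster 9 and 30 against 29.8 in cluster 10. With cells thinned to 3900 UMIs and shallower cells left out, *Cxcl9* and *Cxcl16* met in 178 against 137 cDC1s, with 34 against 23.0 in cluster 7, 41 against 43.4 in cluster 8, 25 against 24.7 in cluster 9 and 22 against 23.2 in cluster 10. Thinned counts for *Cxcl10* and *Cxcl16* were 99 against 79.9 over all cDC1s, 16 against 10.6 in cluster 7, 22 against 24.4 in cluster 8, 24 against 20.2 in cluster 9 and 13 against 14.3 in cluster 10. Both pairs were then above the product over all cDC1s and in clusters 7 and 9, and just below it in clusters 8 and 10, from fewer and deeper cells than before. All 3 members were detected in 174 cells, 47 of 162 in cluster 9, 30 of 76 in cluster 10, 32 of 422 in cluster 7 and 28 of 255 in cluster 8. *Cxcl9* and *Ccr7* met in 90 cells, 66 of them in cluster 8, where separate shares give 63.7. In cluster 10 they met in 5 cells against 4.61. *Cxcl9* and *Il12b*, which encodes the p40 subunit of IL-12, met in 49 cells of cluster 8 against 53.7.

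**Figure D4:**
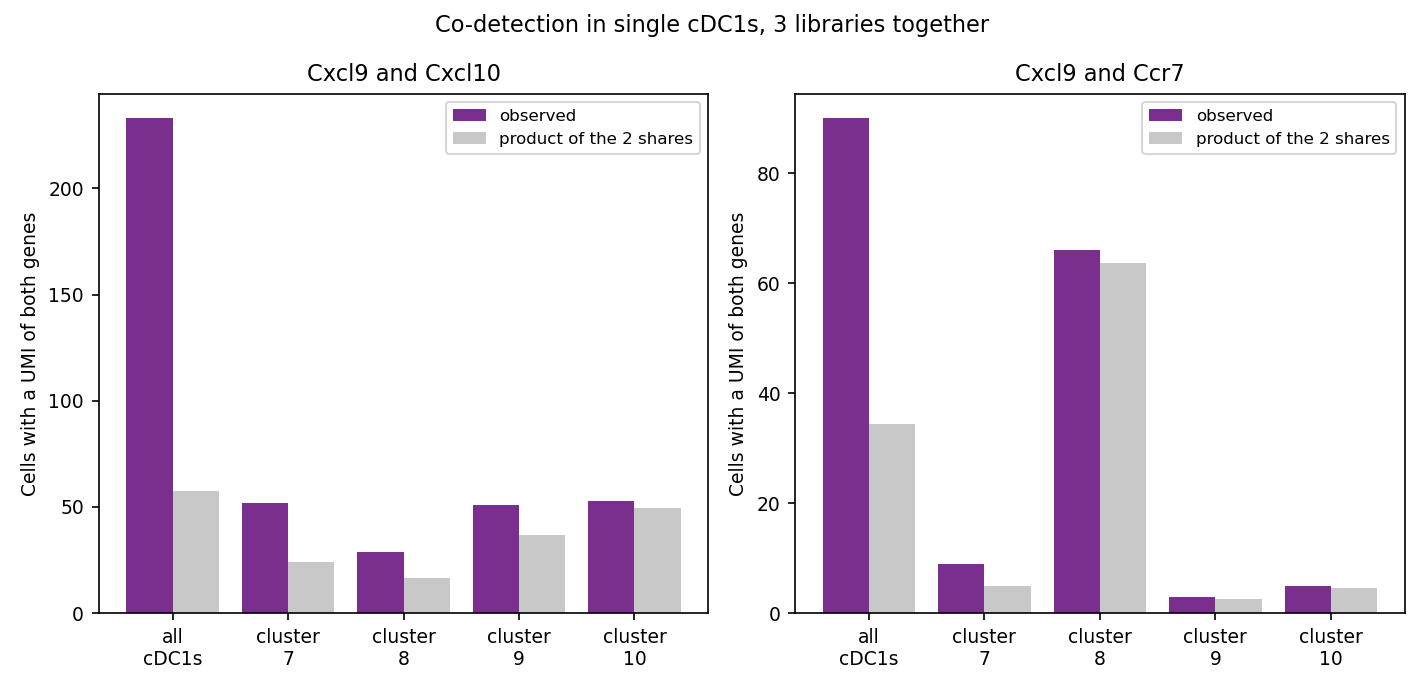
Number of cDC1s with UMIs of both genes (purple bars) beside the number given by the product of their shares (grey bars), over all cDC1s and in clusters 7 to 10, for *Cxcl9* with *Cxcl10* and with *Ccr7*. *Cxcl9* with *Cxcl10* lies above the product in cluster 7 (52 against 24.2), and *Cxcl9* with *Ccr7* close to it in cluster 8 (66 against 63.7).

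Cells of 1 cluster were compared by whether they carried *Cxcl9*, with no test, since these cells were picked by a count. In cluster 8, 77 cells with *Cxcl9* (median depth 15091 UMIs) and 178 without (8292 UMIs) held the same mean level of *Cxcl16*, 679 ± 84.1 and 679 ± 124 CPM. *Ccr7* was at 1765 ± 749 and 2177 ± 724 CPM and *Il12b* at 1804 ± 805 and 1899 ± 748 CPM, so that the *Ccr7* transcripts were present in both sets. *Isg15* was higher in the cells with *Cxcl9*, at 986 ± 378 against 317 ± 145 CPM, and so was the cDC1 receptor *Xcr1*, at 211 ± 55.3 against 103 ± 38.9 CPM.

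In cluster 7, 138 cells with *Cxcl9* held *Cxcl10* at 686 ± 432 CPM, and 284 without held 24.9 ± 21.5 CPM, at similar median depths (14584.5 and 14018 UMIs). *Gbp5* was at 68.7 ± 15.4 against 6.61 ± 1.32 CPM, *Cd40*, a costimulatory receptor, at 151 ± 29.5 against 42.0 ± 5.74 CPM and *Irf1* at 123 ± 16.8 against 63.7 ± 10.6 CPM. *Isg15* differed less, at 1896 ± 48.7 against 1140 ± 168 CPM. In cluster 9, 83 cells with *Cxcl9* held *Cxcl10* at 337 ± 8.45 CPM and 79 without held 77.8 ± 74.2 CPM, while *Gbp5* gave 2 and 0 UMIs in them. *Cxcl16* was at 132 ± 57.2 against 75.8 ± 9.12 CPM in cluster 7, with WT lower in the cells with *Cxcl9* (69.2 against 76.6 CPM), and at 186 ± 43 against 123 ± 27.1 CPM in cluster 9.

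Genotypes were compared on 1 library each, without a test. Over all cDC1s *Cxcl9* was at 129 CPM (95% interval 125 to 133) in WT, 167 (162 to 172) in sGSN-/- and 157 (151 to 162) in sGSN-/-Clec9a-/-. *Cxcl10* was at 48.6, 58.9 and 83.4 CPM and *Cxcl16* at 117, 156 and 127 CPM in the same order. The ratio of sGSN-/- to WT was 1.29 (1.24 to 1.35) for *Cxcl9*, 1.21 (1.13 to 1.30) for *Cxcl10* and 1.33 (1.27 to 1.39) for *Cxcl16*. With every cluster given the same weight these ratios were 1.06, 1.02 and 1.15; sGSN-/- had 114 of its 1712 cDC1s in cluster 8 and 27 in cluster 10, beside 84 and 21 of 2316 in WT. The ratio of sGSN-/-Clec9a-/- to sGSN-/- was 0.938 (0.895 to 0.982) for *Cxcl9*, 0.813 (0.773 to 0.855) for *Cxcl16* and 1.41 (1.32 to 1.52) for *Cxcl10*, and with equal weights 0.954, 0.871 and 1.49. *Cxcl10* was therefore higher in the double mutant library at both weightings, but the spread between pools of 1 genotype was not measured. The equal-weight values of *Cxcl10* rest largely on cluster 10, at 1508 CPM in 27 cells of sGSN-/- and 2450 CPM in 28 cells of sGSN-/-Clec9a-/-.

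Most transcripts of *Cxcl10* and *Cxcl16* lay in barcodes outside the cDC1 table. The table held 19.2% of barcodes and 19.5% of UMIs, and the 24403 barcodes outside it held 49.0% of *Cxcl9*, 87.8% of *Cxcl10* and 87.1% of *Cxcl16* UMIs. By library the outside share of *Cxcl9* was 54.5% in WT, 48.2% in sGSN-/- and 40.9% in sGSN-/-Clec9a-/-. These barcodes were clustered anew, without *Cxcl9*, *Cxcl10* and *Cxcl16* among the genes used, and named from marker genes. The names are thus rebuilt and not the authors'.

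*Cxcl16* was higher in most other myeloid cells than in cDC1s as a whole, but not in every rebuilt cluster. Monocyte- or macrophage-like cells held 421, 411 and 432 CPM in WT, sGSN-/- and sGSN-/-Clec9a-/- (421 ± 10.7, n = 3), with a UMI in 93.7% of cells. The level in the cells that the markers named cDC2-like was 256, 248 and 219 CPM (241 ± 19.5), with a UMI in 77.9%. All cDC1s together were at 133 ± 20.1 CPM, below both in each library. Against cDC1s the edgeR log2 fold changes were 1.58 (SE 0.15, adjusted p = 1.7e-10) and 0.70 (SE 0.14, adjusted p = 0.00013), beside 60.1% (29.8% higher and 30.3% lower) and 58.2% (29.3% higher and 28.9% lower) of the 13106 genes called. With library sizes alone the shares in cDC2-like cells were 37.4% higher and 19.9% lower.

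The cDC2-like class pooled 2 unlike rebuilt clusters. The larger, of 3773 cells led by *Ifitm1* and *Ffar2*, held *Cxcl16* at 354, 352 and 364 CPM, with a UMI in 88.4% of cells. The smaller, of 1801 cells outside the table, was led by *Retnla*, *Lpl* and *Ear2* and carried 9 monocyte or macrophage markers beside all 6 cDC2 markers, so that its name is uncertain. It held *Cxcl16* at 97.4, 136 and 114 CPM, with a UMI in 55.7% of cells, below all cDC1s of the same library (117, 156 and 127 CPM). With the clusters kept apart, an alternative chosen after seeing the data, the edgeR differences of *Cxcl16* from cDC1s were 1.39 in the larger (SE 0.15, adjusted p = 1.1e-09) and -0.47 in the smaller (SE 0.15, adjusted p = 0.0058). Of all genes 56% (27.1% higher and 29% lower) and 62.7% (29.6% higher and 33% lower) were called in these comparisons. *Cxcl10* was at 35.6, 31.0 and 25.3 CPM in the larger and at 90.0, 123 and 83.4 CPM in the smaller. Set against each other directly, with 55.3% of genes called (27.8% higher and 27.5% lower), the larger cluster was higher in *Cxcl16* by 1.87 (SE 0.15, edgeR adjusted p = 4.7e-12). *Cxcl9* was low in both, at 12.3 ± 6.84 and 15.1 ± 11.6 CPM. The other values of cDC2-like cells are those of the pool.

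A cluster of 225 cells with *Ccr7* at 1783 CPM, *Sirpa* at 81.5 and *Xcr1* at 19.4 CPM, called activated cDC-like, held *Cxcl16* at 617 ± 40.3 CPM (626, 573 and 652), a level whose range overlaps that of the *Ccr7* cDC1s of cluster 8. In these cells *Cxcl9* was at 152 ± 105 CPM. *Adam10* was at 74.5 ± 6.25 CPM in cDC2-like and 84.2 ± 1.95 CPM in monocyte- or macrophage-like cells, against 22.3 ± 1.94 CPM in cDC1s (1.59, SE 0.08, and 1.83, SE 0.08).

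A single rebuilt cluster led by *Ifit3* and *Rsad2* carried much of the *Cxcl10*. Its 439 barcodes outside the table held *Cxcl10* at 2086 CPM in WT, 2401 in sGSN-/- and 1793 in sGSN-/-Clec9a-/- (2093 ± 304, n = 3), with a UMI in 63.3% of cells. They accounted for 32.2% of all *Cxcl10*, 17.9% of all *Cxcl9* and 2.55% of all *Cxcl16* UMIs of the series. *Cxcl9* was at 571, 1131 and 461 CPM and *Cxcl16* at 339, 330 and 322 CPM, so that the sGSN-/- library was high in *Cxcl9* and the libraries were alike in *Cxcl16*. These cells held *Cd209a* at 449, *Fcgr1* at 385 and *Csf1r* at 145 CPM and *Xcr1* at 17.5 CPM, whereas the 306 cells of the same cluster inside the table held *Xcr1* at 247 CPM. Over its 745 cells 5 of 7 cDC1 markers would name the cluster cDC1-like, a name that the *Xcr1* level of the outside cells goes against, so it is called here by its leading genes.

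The levels of *Cxcl9* and *Cxcl10* in the other classes depended on where these cells were counted. The *Ifit3* and *Rsad2* cluster was made without *Cxcl9*, *Cxcl10* and *Cxcl16*, and its markers named it neither cDC2-like nor monocyte- or macrophage-like. *Cxcl9* and *Cxcl10* were still among its 10 leading genes. Thus 439 cells rich in both were in neither class, whereas all cDC1s kept their own clusters 7 and 10. The differences from cDC1s are therefore descriptions, with no test. Without the 439 cells *Cxcl9* was at 12.8, 21.6 and 8.36 CPM in cDC2-like and 30.7, 33.2 and 12.3 CPM in monocyte- or macrophage-like cells, beside 151 ± 19.6 CPM in cDC1s. *Cxcl10* was at 63.7 ± 10.3 and 79.5 ± 20.6 CPM beside 63.7 ± 17.9 CPM. With the 439 cells added to each class in turn, an alternative chosen after seeing the data, *Cxcl9* was at 54.7 ± 27.1 CPM in cDC2-like and 99.1 ± 48.3 CPM in monocyte- or macrophage-like cells. *Cxcl10* was then at 180 ± 30 and 291 ± 55.7 CPM, above cDC1s in each library, and *Cxcl16* at 246 ± 19.3 and 412 ± 9.33 CPM.

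Other genes of the classes were read from the edgeR fit without the 439 cells. *Cxcr3* was at 2.71 ± 0.859 and 3.37 ± 0.299 CPM there against 66.3 ± 5.92 CPM in cDC1s. The counts of interferon genes moved with the same 439 cells. Over all genes 28.9% were lower and 29.3% higher in cDC2-like cells, or 31.6% and 27.3% (58.9% in all) with the cells added, and in monocyte- or macrophage-like cells 30.3% and 29.8%, or 29.4% and 29.7% (59% in all) with them. Of 15 in the interferon gamma path 10 were lower and 3 higher in cDC2-like cells, or 8 and 3 with the cells added. In monocyte- or macrophage-like cells 11 were lower and 4 higher, or 7 and 6 with them. Of 14 in the type I path 11 were lower and 1 higher in each class, or 9 and 3 in cDC2-like and 4 and 4 in monocyte- or macrophage-like cells with them. In monocyte- or macrophage-like cells with them, the type I share was thus near that of all genes. Of 10 NF-kB genes 4 were higher in each class, with 0 lower in cDC2-like cells (6 higher with library sizes alone) and 3 lower in monocyte- or macrophage-like cells, the latter near the shares over all genes. *Cxcl2* was higher in both classes, reaching 2642 ± 167 and 3755 ± 498 CPM against 40.7 ± 5.63 CPM. The rest of the other CXC chemokines did not pass the filter on low counts among the cDC1 clusters, so no count of calls is given for them.

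Lymphoid cells that passed the sort also carried *Cxcl10* UMIs. NK-like cells (3715) held *Cxcl10* at 137, 112 and 101 CPM and T-like cells (367) at 131 ± 60.6 CPM, while *Cxcl9* in NK-like cells was at 3.10 CPM and *Cxcl16* at 16.0 CPM. In T-like cells *Cxcl9* ranged from 0 CPM in WT to 116 in sGSN-/-. Plasmacytoid-like cells held 24.8, 16.7 and 38.4 CPM of *Cxcl9*, *Cxcl10* and *Cxcl16*, and pre-cDC-like cells 27.4, 70.3 and 61.4 CPM. The pre-cDC-like values depended on the processing: over the alternatives *Cxcl9* ranged from 26.9 to 94.8 CPM and *Cxcl10* from 70.3 to 131 CPM. NK-like cells held 10.9% of all *Cxcl10* UMIs. The gate had removed cells with NK1.1 and CD3e, and the part of free RNA in these counts was not tested. Outside the table *Cxcl9* and *Cxcl10* met in 380 barcodes against 131 from separate shares.

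**Figure D5:**
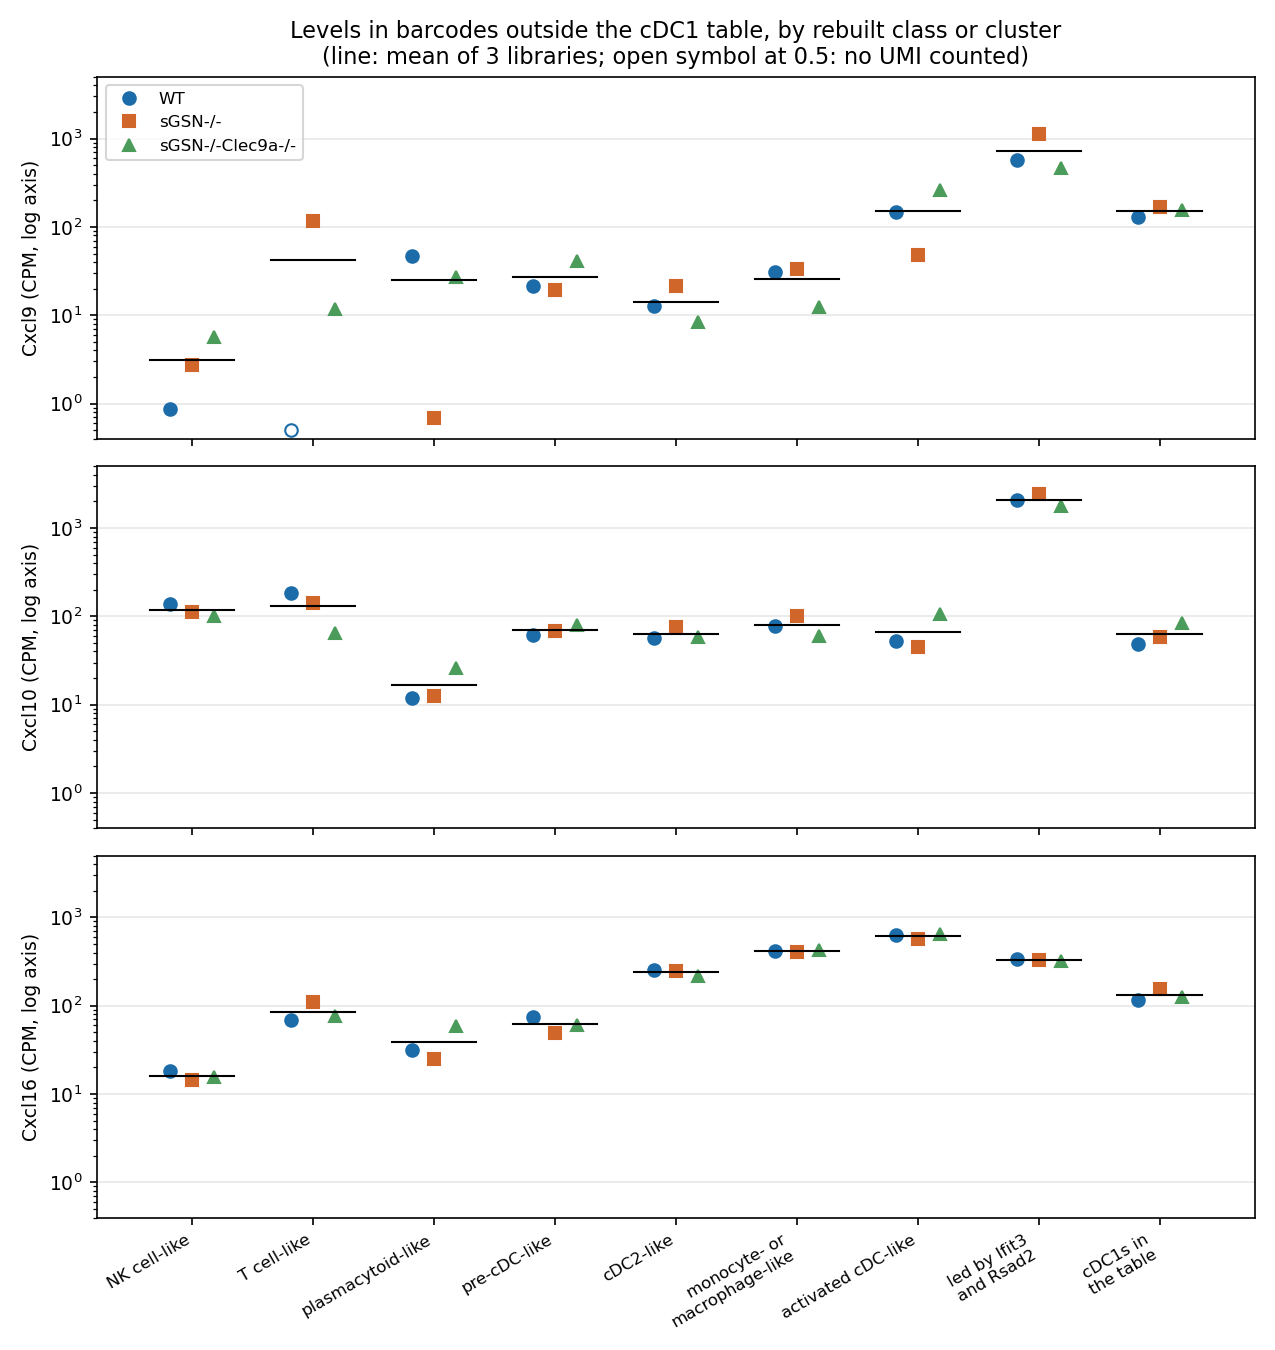
Level of *Cxcl9*, *Cxcl10* and *Cxcl16* (CPM, log axis) in classes of barcodes outside the cDC1 table and in all cDC1s; symbols are the 3 libraries, lines their mean, and an open symbol a library with no UMI; cDC2-like cells pool 2 rebuilt clusters. The cluster led by *Ifit3* and *Rsad2* has the highest *Cxcl10* (2093 CPM) and *Cxcl9* (721 CPM), and activated cDC-like cells the highest *Cxcl16* (617 CPM).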

How the data were processed

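For every library the authors deposited a matrix of raw UMI counts (genes by barcodes) from Cell Ranger 6.0.1 (per the file headers), on reads aligned to mm10, and a table of cDC1s with UMI counts, gene numbers, clusters and UMAP coordinates (a score the authors deposited, not used here). According to the methods, libraries were integrated with Seurat before clustering; the counts used here precede integration. CPM were computed here from the deposited counts.

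Sums of UMIs per cluster within a library entered edgeR 4.0.16 (R 4.3.3; TMM, filterByExpr, quasi-likelihood test, Benjamini-Hochberg at 0.05), with clusters 0 to 10 in 1 fit; SEs are the absolute log2 fold change over the square root of F. The test was also run on simulated counts, whose outcome is not given here. The library pairs sums by design; their deviations correlated between -0.015 and 0.271 across the 7 comparisons. Alternatives were the library as a block, DESeq2 1.42.0, no TMM, no filter, each library left out, thinning to 3900 UMIs, doublets left out, other clusters and the rebuilt clusters named cDC2-like kept apart or joined by a further cluster.

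All barcodes with at least 200 genes and a mitochondrial share of at most 17.5% (658, 377 and 232 barcodes were removed in WT, sGSN-/- and sGSN-/-Clec9a-/-) were clustered in Python 3.11.15 using leidenalg 0.10.2 within scanpy 1.11.5 (2000 variable genes, 50 components, 20 neighbours, resolution 1), and clusters were named from markers. Scrublet's own threshold marked 0, 0 and 536 barcodes, so the 6% with the highest scores per library (765, 490 and 555) were taken as doublets, kept in the main values and left out in an alternative. Shares and levels of single libraries carry exact Clopper-Pearson and Poisson 95% intervals. For each gene list up to 4 genes past the threshold with the largest changes were eligible to be named, and for each member the 5 genes most like it. Members and lists were chosen with earlier results of these data known.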

Additional observations from a re-analysis of the deposited data

Results flagged for a closer look

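Some differences pointed one way in 1 or 2 libraries and the other way in the rest. With 1 library per genotype, the difference between genotypes was not tested for any of them. All values are log2 ratios of CPM within a library.

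*Cxcl9* in cluster 8 against cluster 9 had a log2 ratio of 1.31 in WT and 1.40 in sGSN-/-Clec9a-/- but -0.52 in sGSN-/-. The sGSN-/- value rests on 40 cells in cluster 9 and 114 in cluster 8.

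*Cxcl10* in cDC2-like cells against cDC1s had ratios of 0.22 in WT, 0.36 in sGSN-/- and -0.50 in sGSN-/-Clec9a-/-. In monocyte- or macrophage-like cells against cDC1s the ratios were 0.66, 0.78 and -0.47 in the same order. Both comparisons use the same cDC1s, in which *Cxcl10* was at 83.4 CPM in sGSN-/-Clec9a-/- and at 48.6 and 58.9 CPM in WT and sGSN-/-, and leave out the cells of the cluster led by *Ifit3* and *Rsad2*, with which *Cxcl10* was higher than in cDC1s in each library.

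*Cxcl16* in cluster 7 against the resting clusters had ratios of -0.26 in WT, 0.051 in sGSN-/- and 0.067 in sGSN-/-Clec9a-/-.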

How the results depend on the processing

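The differences of *Cxcl9* and *Cxcl10* between clusters 10 and 7 and of both from the resting clusters in clusters 7 and 9, of *Cxcl10* and *Cxcl16* between clusters 10 and 8, and of *Cxcl16* between clusters 8 and 9 and between both myeloid classes and cDC1s kept their direction and call in each alternative that gave a value, although the rebuilt cluster led by *Retnla* on its own was lower in *Cxcl16* (-0.47). Clustered without the 3 genes at resolution 1.2, clusters 10 and 7 matched the same new cluster, so that their comparison gave no value there; *Cxcl9* in cluster 10 against cluster 8 was then 0.63 (edgeR adjusted p = 0.12) with 4418 genes called instead of 2610, and *Cxcl16* in cluster 7 against resting clusters 0.36 (adjusted p = 0.032). At resolution 2, chosen after seeing the data, 70 of the 76 cells of cluster 10 fell in a cluster of 99 cells with *Cxcl9* at 3456 CPM. For *Cxcl9* in cluster 8 against cluster 9 the call was lost with library sizes alone in place of TMM (0.66), thinning (0.59) and DESeq2 (0.86, adjusted p = 0.18), and leaving out each library gave 0.56 to 1.53. For *Cxcl10* the same comparison passed with library sizes alone (-1.13), no filter (-0.99) and the replicate block (-0.91), and leaving out each library gave -1.29 to -0.38. The replicate block changed no other call of these genes. Leaving out each library gave 0.71 to 1.11 for *Cxcl16* in cluster 10 against 7 and 0.60 to 0.93 in cluster 9 against resting clusters. The differences of *Cxcl9* and *Cxcl10* between the myeloid classes and cDC1s are values without a test: *Cxcl10* in monocyte- or macrophage-like cells was at 0.22 with no filter and at -0.037 to 0.65 without each library, and in cDC2-like cells at -0.52 with thinning and -1.08 without the rebuilt cluster led by *Retnla*. With the outside cells of the cluster led by *Ifit3* and *Rsad2* added to the class, *Cxcl10* was at 1.31 in cDC2-like cells, turned from -0.16, and at 2.10 in monocyte- or macrophage-like cells, and *Cxcl9* in the latter at -0.70; here the cells added, rich in both, make the change. Both alternatives on rebuilt clusters were chosen after seeing the data. Thinning moved *Cxcl9* in cluster 10 to 5028 CPM. The sGSN-/- to WT ratio with equal cluster weights was 1.06 for *Cxcl9*, 1.02 for *Cxcl10* and 1.15 for *Cxcl16*, and with thinning 1.5 for *Cxcl9* and 1.34 for *Cxcl10*; sGSN-/-Clec9a-/- to sGSN-/- was 0.843 for *Cxcl9* with thinning and 0.871 for *Cxcl16* with equal weights. Apart from fewer cells or UMIs where these were removed, the cause was not tested.

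Counts of called genes fell with thinning from 2610 to 1407 (cluster 10 against 8), 977 to 407 (10 against 7), 3368 to 1871 (8 against 9), 2348 to 1094 (7 against resting) and 576 to 264 (9 against resting). Leaving out each library gave 536 to 796, 1416 to 1917 and 325 to 454 genes in cluster 10 against 7, 7 against resting and 9 against resting. Without TMM the median over all genes moved from -0.08 to 0.16 in cluster 10 against 8, from -0.07 to 0.04 in 10 against 7, from -0.0023 to -0.21 in 8 against 9, from -0.01 to -0.14 in 7 against resting and from -0.0033 to 0.15 in cDC2-like cells. The 76 cells of cluster 10 limit the depth of its sums (891318 UMIs).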
